A study of Mus musculus with 18 samples.

Results

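The genes followed were 8 members of the interleukin 1 (IL-1) family and its receptors: the agonists Il1a and Il1b, the receptor antagonist Il1rn, the related cytokine Il18, the signaling receptor Il1r1, the decoy receptor Il1r2, the shared accessory chain Il1rap, and the IL-33 receptor Il1rl1. They were chosen by symbol, whatever their values, and are 8 of the 29875 genes in the count table. All 8 passed the filter on low counts that left 13844 genes for testing. Messenger RNA was sequenced from bone marrow–derived dendritic cells (DCs) of wild-type C57Bl6/J mice aged 8 to 12 weeks, grown with GM-CSF hybridoma supernatant and matured with lipopolysaccharide (LPS, 200 ng/ml, 24 hours). DCs were embedded in bovine collagen gels of 1.7, 2.6, 3.5, or 4.4 mg/ml and migrated toward a CCL19 source, or were placed in the same chambers without collagen, here called suspension. There were 3 replicates in each of 6 groups, hence 12 collagen and 6 suspension libraries. Cells were lysed for RNA once the gradient had stood for 5 hours.

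One suspension group is titled as having CCL19 and the other as lacking it, but the library names contradict this, so the pair was pooled and no direction for CCL19 is given. Every density was therefore compared with the same 6 suspension libraries. All cells carried the LPS maturation, so the suspension libraries are a control for the gel and not for LPS, and the gel cannot be told apart from the handling it requires. The cells are unsorted cultures. Library depth was 13062944 to 28059839 counts, so that a floor of 3 counts corresponds to 0.107 to 0.230 CPM (counts scaled to the library total). The library names give each replicate number its own date and a digit read here as its lane. Before that digit, the names of replicates 1 and 3 share a prefix, and those of replicate 2 have a different one. The test was run without and with the replicate as a block. The 4.4 mg/ml replicate 2 library correlated least with the others of its replicate (median r across genes 0.908, against 0.933 to 0.978). The 10 DC markers, among them Itgax, Ccr7, Cd74, and Fscn1, were detected in every library. They summed to 29044 to 92611 CPM in suspension and 39455 to 102950 CPM in collagen. Ccl22 and Cd74 had the highest means of the 10 (25569 and 19159 CPM in suspension). The 4 T cell and 4 B cell markers summed to at most 3.71 and 13.7 CPM. Lists for macrophages, neutrophils, eosinophils, and basophils and mast cells, given below, summed to at most 2661, 6249, 1339, and 478 CPM. Among the 10 DC markers, Flt3 had a mean of 13.5 CPM in suspension and 6.26 CPM in collagen, while 8 had a positive fitted change in collagen. At a false discovery rate of 0.1, without the block, 1 of the 10 was lower and none higher (12.4% and 7.78% of all genes). With the block 1 was lower and 1 higher (19.3% and 15.6% of all genes).

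IL-1α and IL-1β are released from stressed or activated myeloid cells and bind IL-1R1, which recruits the accessory protein IL-1RAP to signal through MyD88 and IRAK kinases to NF-κB. The family carries its own brakes: IL-1Ra occupies IL-1R1 without signaling, and IL-1R2 captures ligand on a receptor with no signaling domain. IL-1β and IL-18 are made as precursors that inflammasome caspases cleave, whereas the IL-1α precursor is already active, so transcript levels describe supply and not secreted cytokine.

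Il1a and Il1b are neighbors on the minus strand of chromosome 2 (GRCm38), Il1a at chr2:129299610-129309972 and Il1b at chr2:129364570-129371139, 54.6 kb apart. The windows below, from 250 bases before to 50 after the start site (RefSeq, GRCm38.p6, 5′ to 3′ on the gene's own strand), are shown because these 2 genes rose together in collagen. Capitals mark every match, on either strand, to the TATA box letters TATAAA, to the letters TGANTCA that the AP-1 factors prefer, to TTNNGNAA for the C/EBP factors, or to GATAAG for the GATA factors.
Il1a, chr2:129309923-129310222: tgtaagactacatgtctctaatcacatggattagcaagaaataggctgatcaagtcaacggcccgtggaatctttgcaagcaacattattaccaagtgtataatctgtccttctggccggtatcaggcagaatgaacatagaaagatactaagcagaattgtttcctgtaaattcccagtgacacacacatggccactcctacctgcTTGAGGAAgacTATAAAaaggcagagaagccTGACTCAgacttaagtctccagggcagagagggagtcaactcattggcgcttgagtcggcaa
Il1b, chr2:129371090-129371389: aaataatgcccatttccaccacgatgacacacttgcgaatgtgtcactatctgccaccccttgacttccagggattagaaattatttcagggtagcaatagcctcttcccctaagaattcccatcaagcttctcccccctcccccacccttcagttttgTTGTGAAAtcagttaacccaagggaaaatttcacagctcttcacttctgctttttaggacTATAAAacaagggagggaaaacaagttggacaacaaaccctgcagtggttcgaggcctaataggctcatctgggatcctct
The TATA box letters began at position −32 in the Il1a window and −31 in the Il1b window, counting the start site as 0. They occur in 13.6% of all 32851 windows searched. TTNNGNAA, found in 40.7% of windows, was at −43 in Il1a and −91 in Il1b. TGANTCA, found in 7.8% of windows, was in the Il1a window at −12 and had no match in the Il1b window. An NF-κB consensus, found in 8.5% of windows, was also searched and had no match in either window. These are matches of letters, not measured sites.

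Il1b was the most abundant of the 8 transcripts per exon length and was higher in collagen than in suspension in every replicate. In suspension it measured 805, 246, and 234 CPM in the group titled with CCL19 (replicates 1, 2, and 3) and 650, 405, and 127 CPM in the group titled without. At 1.7 mg/ml the 3 replicates held 2231, 838, and 731 CPM and at 2.6 mg/ml 2319, 1082, and 1162 CPM. At 3.5 mg/ml they held 2895, 771, and 373 CPM, and at 4.4 mg/ml 3131, 2107, and 1496 CPM. Each of the 12 collagen libraries lay above both suspension libraries of its own replicate, an order that 2.43% of all genes tested showed. The groups still overlapped: 9 of 12 collagen libraries exceeded the highest suspension library, which was of replicate 1, the highest replicate in every group. With replicate 1 set aside, 3.5 mg/ml replicate 3 at 373 CPM still lay below a replicate 2 suspension library at 405 CPM. The mean was 411 ± 265 CPM in suspension (SD, n = 6) and 1595 ± 914 CPM in collagen (SD, n = 12). The fitted log2 fold change was 1.92 (SE 0.49), a 3.78-fold rise (adjusted p = 0.0163, edgeR quasi-likelihood test), and within replicates 1, 2, and 3 the ratio of means was 3.64, 3.69, and 5.21. An exact two-sided permutation test over libraries gave p = 9.696e-04. This test, here and below, exchanged libraries across replicates and so took no account of the date and lane that replicates share. Per exon length, the mean Il1b level exceeded that of 98.5% of tested genes in suspension and 99.5% in collagen.

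Il1a, the agonist that is active as a precursor, had the larger fitted fold change, on a lower level, a difference between the genes that was not tested. In suspension it measured 112, 28.7, and 16.5 CPM in replicates 1, 2, and 3 of the group titled with CCL19 and 129, 92.4, and 17.2 CPM in the other. It held 277, 100, and 142 CPM at 1.7 mg/ml, 407, 90.1, and 152 CPM at 2.6 mg/ml, 629, 142, and 62.5 CPM at 3.5 mg/ml, and 1148, 258, and 235 CPM at 4.4 mg/ml. Thus 11 of 12 collagen libraries lay above both suspension libraries of their replicate (5.24% of genes had at least 11), the exception being 2.6 mg/ml replicate 2 at 90.1 CPM. The mean rose from 66.0 ± 51.0 CPM (SD, n = 6) to 304 ± 310 CPM (SD, n = 12). The log2 fold change was 2.09 (SE 0.63), or 4.25-fold, with adjusted p = 0.0376 (edgeR), and the exact permutation test gave p = 0.00339. Within replicates the ratio of means was 5.11, 2.44, and 8.76.

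**Figure D1:**
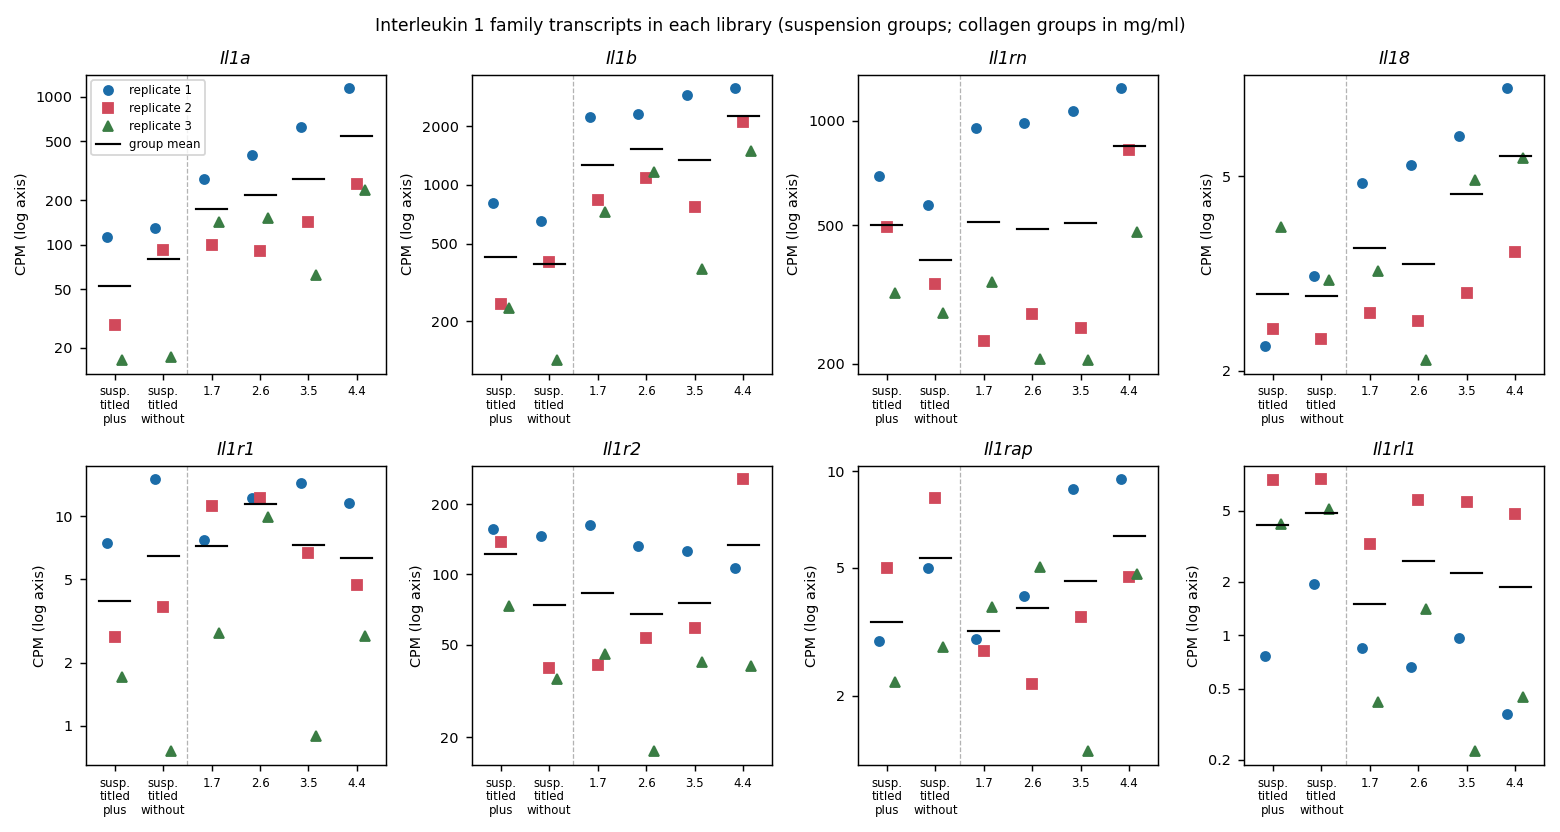
Level of each of the 8 transcripts in CPM on a log axis, by group, with 1 symbol for each replicate and a bar at the group mean (n = 3); the dashed line separates suspension from collagen (mg/ml). Il1b reached 3131 CPM and Il1a 1148 CPM in the 4.4 mg/ml replicate 1 library. Il1rl1 lay below both suspension libraries of its replicate in 10 of 12 collagen libraries, a change not called without the block.

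Il1a and Il1b were the only members called in collagen against suspension without the block, 2 of 8 at a false discovery rate of 0.1, where 20.2% of all genes tested were called and 7.78% were called higher and 12.4% lower. With the replicate block, 4 of 8 were called (34.8% of all genes), Il1a at a log2 fold change of 2.12 (adjusted p = 1.22e-04) and Il1b at 1.97 (adjusted p = 2.60e-05), joined by Il1r1 and Il1rl1. Both calls were lost without replicate 2, when the log2 fold changes were 2.36 and 2.01, with adjusted p of 0.200 for Il1a and 0.182 for Il1b in a fit on fewer libraries, and without replicate 3 Il1a had an adjusted p of 0.117. Across the 18 libraries, which share replicate dates, log2 CPM of Il1a and Il1b correlated at r = 0.949, and at r = 0.924 after each replicate's mean was removed. Il1a lay next in pattern to Ptgs2 (r = 0.966) and Cxcl1 (r = 0.953), and Il1b to Cxcl1 (r = 0.976), Ptgs2 (r = 0.965), and Atf4 (r = 0.957). Ptgs2 encodes the inducible cyclooxygenase, Cxcl1 a neutrophil-attracting chemokine, and Atf4 a stress-response transcription factor. Macrophages, another source of IL-1, were represented by 8 markers that summed to 418 to 2382 CPM in suspension and 397 to 2661 CPM in collagen, none at 0 in any library. Of these 8, none was called without the block and 6 were called higher with it, against 15.6% of all genes higher with the block, and their part in the Il1a and Il1b values was not tested.

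The antagonist Il1rn did not pass the test over all collagen densities. Il1rn lies apart from them, on the plus strand at chr2:24336853-24351494, in the row of IL-36 genes. It measured 694, 494, and 319 CPM in replicates 1, 2, and 3 of the suspension group titled with CCL19 and 572, 340, and 280 CPM in the other. At 1.7 mg/ml it held 954, 232, and 344 CPM, at 2.6 mg/ml 983, 278, and 206 CPM, at 3.5 mg/ml 1064, 253, and 205 CPM, and at 4.4 mg/ml 1241, 821, and 478 CPM. Replicate 1 was higher in all 4 gels than in suspension, whereas replicate 2 was below both of its suspension libraries at 1.7, 2.6, and 3.5 mg/ml. In total 7 of 12 collagen libraries were above both suspension libraries of their replicate and 5 were below both. The log2 fold change was 0.36 (SE 0.43, adjusted p = 0.637), with means of 450 ± 164 CPM (SD, n = 6) and 588 ± 393 CPM (SD, n = 12), and it turned to −0.11 without replicate 1. At 4.4 mg/ml, where all 3 libraries exceeded both suspension libraries of their replicate, the log2 fold change was 0.92 (adjusted p = 0.345) and reached the threshold only with the block (0.89, adjusted p = 0.0247). The transcripts nearest Il1rn in pattern were Rgl1 (r = 0.982), Isg20 (r = 0.975), and 1810043G02Rik (r = 0.961).

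The balance of agonist to antagonist within a library separated the conditions completely. The ratio of Il1b to Il1rn, each per exon length, was 1.31 to 3.46 in the 6 suspension libraries (median 2.72) and 5.29 to 16.3 in the 12 collagen libraries (median 7.67). The ratio of Il1a to Il1rn was 0.145 to 0.762 in suspension (median 0.313) and 0.816 to 2.59 in collagen (median 1.19). In both, every collagen library was above every suspension library. Of the 13843 genes tested other than Il1rn, 0.166% separated upward in this way in their ratio to Il1rn, which is 23 genes with Il1a and Il1b included. On their own, neither Il1a nor Il1b separated the libraries in this way, an order that 0.506% of genes had. The ratio of Il1b to Il1a overlapped, at 4.54 to 14.7 in suspension and 2.82 to 12.4 in collagen. No test was run on these ratios, which were formed with the values of their members known.

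**Figure D2:**
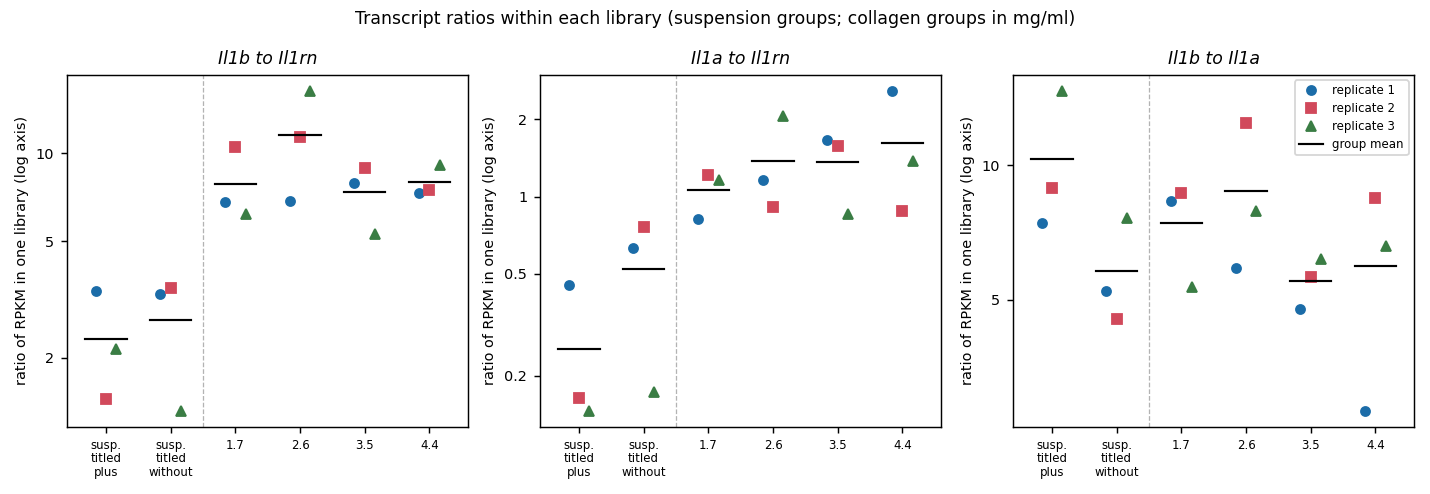
Ratios of exon-length-scaled levels (RPKM) within each library on log axes, by group and replicate, with a bar at the group mean (n = 3). Both agonist-to-antagonist ratios sit higher in all 12 collagen libraries than in any suspension library (lowest collagen values 5.29 and 0.816), whereas Il1b to Il1a overlaps.

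Il18, on chromosome 9 (chr9:50554827-50581840), was a low transcript of 34 to 168 counts per library. Suspension libraries held 2.25, 2.43, and 3.94 CPM in the group titled with CCL19 and 3.13, 2.32, and 3.07 CPM in the other. Collagen libraries held 4.85, 2.63, and 3.21 CPM at 1.7 mg/ml, 5.28, 2.53, and 2.10 CPM at 2.6 mg/ml, 6.03, 2.88, and 4.91 CPM at 3.5 mg/ml, and 7.58, 3.50, and 5.45 CPM at 4.4 mg/ml. In 10 of 12 collagen libraries Il18 was above both suspension libraries of its replicate (8.96% of genes had at least 10), by a small margin in replicate 2. The log2 fold change was 0.54 (SE 0.29, adjusted p = 0.233, exact permutation p = 0.0730). At 4.4 mg/ml it was 0.95 (adjusted p = 0.130), and 0.88 with the block (adjusted p = 0.0487). That call passed in 3 of 12 alternatives and was lost when GC and length offsets were added to the block (0.34, adjusted p = 0.415). Gbp2, an interferon-induced GTPase, was nearest in pattern (r = 0.893), followed by Phf11b (r = 0.892) and Tmem242 (r = 0.884).

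The receptor genes Il1r2, Il1r1, and Il1rl1 lie in 1 row on the plus strand of chromosome 1, with Il1rl2, Il18r1, and Il18rap between or beside them, and their fitted changes in collagen differed in sign. Per exon length, the decoy Il1r2 was the highest of the receptors, at a mean RPKM of 51.4 ± 28.9 in suspension (SD, n = 6), against 0.819 ± 0.839 for Il1r1, 0.385 ± 0.196 for Il1rap, and 0.650 ± 0.402 for Il1rl1. The decoy thus exceeded the signaling receptor in every library, by 5.84- to 182-fold.

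Il1r1 was not called over all collagen densities without the block (log2 fold change 0.64, SE 0.58, adjusted p = 0.523) and was called with it (0.92, adjusted p = 0.0643). Without the block it was 1.43 (adjusted p = 0.144) without replicate 1 and 0.35 (adjusted p = 0.880) without replicate 2. Suspension libraries held 7.46, 2.65, and 1.70 CPM and 15.0, 3.69, and 0.754 CPM in the 2 groups, a spread that followed the replicate. The 2.6 mg/ml gel gave the steadiest values, 12.2, 12.2, and 9.94 CPM, where the log2 fold change was 1.17 (adjusted p = 0.436) without and 1.82 (adjusted p = 0.0168) with the block. The other densities held 7.70, 11.2, and 2.78 CPM (1.7 mg/ml), 14.5, 6.67, and 0.894 CPM (3.5 mg/ml), and 11.6, 4.69, and 2.698 CPM (4.4 mg/ml). No collagen library exceeded the highest suspension library, and the replicates disagreed in size, with ratios of means of 1.02, 2.75, and 3.32. E330009J07Rik (r = 0.934), Gfod1 (r = 0.924), and Cd9 (r = 0.922) were nearest to Il1r1.

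The decoy receptor Il1r2 did not pass the test in any comparison. It measured 157, 138, and 73.2 CPM and 146, 39.8, and 35.5 CPM in the 2 suspension groups, 164, 41.1, and 45.6 CPM at 1.7 mg/ml, and 132, 53.6, and 17.4 CPM at 2.6 mg/ml. At 3.5 mg/ml it held 126, 59.0, and 41.9 CPM and at 4.4 mg/ml 106, 256, and 40.6 CPM, the highest value being the 4.4 mg/ml replicate 2 library that stood apart. The log2 fold change over all densities was −0.13 (SE 0.48, adjusted p = 0.892), and that at 4.4 mg/ml turned from 0.50 to −0.37 without that library. Neutrophils, which also carry IL-1R2, were represented by a 10-gene list summing to 451 to 6249 CPM in suspension and 824 to 3690 CPM in collagen, with none of the 10 at 0 in any library and 3 of 10 (Ly6g, Retnlg, and Cxcr2) called lower in collagen, against 12.4% of all genes. Their part in the Il1r2 values was not tested. Plbd2 (r = 0.958), Inpp5k (r = 0.957), and Nxn (r = 0.954) were nearest to Il1r2.

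Il1rap, on chromosome 16 (chr16:26581704-26730117), ranged from 1.34 to 9.43 CPM. Its means were 4.37 ± 2.23 CPM in suspension (SD, n = 6) and 4.45 ± 2.44 CPM in collagen (SD, n = 12), and 5 collagen libraries lay above and 5 below both suspension libraries of their replicate. The log2 fold change was 0.02 (SE 0.36, adjusted p = 0.982). Its nearest genes, Utp14b (r = 0.807), Klra2 (r = 0.792), and Dennd2c (r = 0.766), were less like it than those of any other member.

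Il1rl1, which encodes the IL-33 receptor chain ST2 of mast cells, basophils, and other type 2 cells, had the lowest fitted fold change of the 8 in collagen, with a call that depended on the fit. It has 2 annotated start windows in RefSeq, shown because the gene-level counts below do not separate them.
Il1rl1, upstream start, chr1:40429320-40429619: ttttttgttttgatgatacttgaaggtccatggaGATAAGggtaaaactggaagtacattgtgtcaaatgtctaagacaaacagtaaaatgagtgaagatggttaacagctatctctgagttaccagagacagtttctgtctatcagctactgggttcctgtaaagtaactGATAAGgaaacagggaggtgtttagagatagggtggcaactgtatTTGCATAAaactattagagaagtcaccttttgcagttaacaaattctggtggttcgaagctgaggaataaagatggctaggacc
Il1rl1, downstream start, chr1:40439379-40439678: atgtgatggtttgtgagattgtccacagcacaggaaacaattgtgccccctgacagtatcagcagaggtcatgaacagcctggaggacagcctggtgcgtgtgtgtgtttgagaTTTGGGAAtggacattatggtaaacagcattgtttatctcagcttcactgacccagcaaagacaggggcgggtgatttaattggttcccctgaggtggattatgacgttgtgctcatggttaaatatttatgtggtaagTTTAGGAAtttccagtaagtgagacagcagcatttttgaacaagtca
GATAAG, present in 7.4% of windows, occurred in the upstream window and had no match in the downstream one. In suspension Il1rl1 measured 0.767, 7.44, and 4.19 CPM and 1.93, 7.47, and 5.10 CPM. In collagen it measured 0.847, 3.24, and 0.420 CPM at 1.7 mg/ml, 0.660, 5.71, and 1.41 CPM at 2.6 mg/ml, 0.960, 5.55, and 0.223 CPM at 3.5 mg/ml, and 0.361, 4.78, and 0.450 CPM at 4.4 mg/ml. In 10 of 12 collagen libraries it lay below both suspension libraries of its replicate (12.2% of genes had at least 10), and in none above both, and replicate 2 was the highest in all 6 groups. The decrease was 1.91-, 1.55-, and 7.42-fold in replicates 1, 2, and 3. The log2 fold change was −1.16 (SE 0.69, adjusted p = 0.293, exact permutation p = 0.0608) without the block and −1.56 (adjusted p = 0.00614) with it, where 19.3% of genes were called lower. At 4.4 mg/ml it was −1.30 (adjusted p = 0.484) and −1.88 (adjusted p = 0.0283), and without the block it was −3.44 (adjusted p = 0.146) without the 4.4 mg/ml replicate 2 library, −2.85 (adjusted p = 0.244) without replicate 2, and −0.80 (adjusted p = 0.758) without replicate 3. Over all densities, without the block, Il1rl1 passed when replicate 2 (−2.22, adjusted p = 0.0902) or only the 4.4 mg/ml replicate 2 library (−1.70, adjusted p = 0.0943) was left out, or with no filter on low counts (−1.19, adjusted p = 0.0338). It did not pass without replicate 1 (−1.15, adjusted p = 0.343) or without replicate 3 (−0.69, adjusted p = 0.668). These values rest on 3 to 164 counts per library.

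A GM-CSF culture can hold cell types other than DCs. The genes nearest Il1rl1 in pattern were Lama5 (r = 0.932), the basophil protease Prss34 (r = 0.870), and Myo1d (r = 0.868). The 8 basophil and mast cell markers summed to 161 to 419 CPM in suspension and 96.4 to 478 CPM in collagen, with up to 2 of them at 0 in a collagen library. Of these 8, Kit was called lower (log2 fold change −1.11, adjusted p = 0.00308) and Hdc higher (0.76, adjusted p = 0.0664) without the block (list median −0.46). With the block, in which Il1rl1 was called, 3 of the 8 were called lower (Kit, Ms4a2, and Prss34) and 1 higher (list median −0.69), against 19.3% of all genes lower and 15.6% higher. The 8 eosinophil markers summed to 117 to 1339 CPM in suspension and 14.0 to 168 CPM in collagen, with up to 2 at 0, and all 7 that were tested were called lower (median log2 fold change −3.05), although the Ear genes among them are near-identical copies whose counts are uncertain. The part of these cells in the Il1rl1 values was not tested. In bulk RNA, fewer cells of a type and less RNA per cell cannot be told apart.

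**Figure D3:**
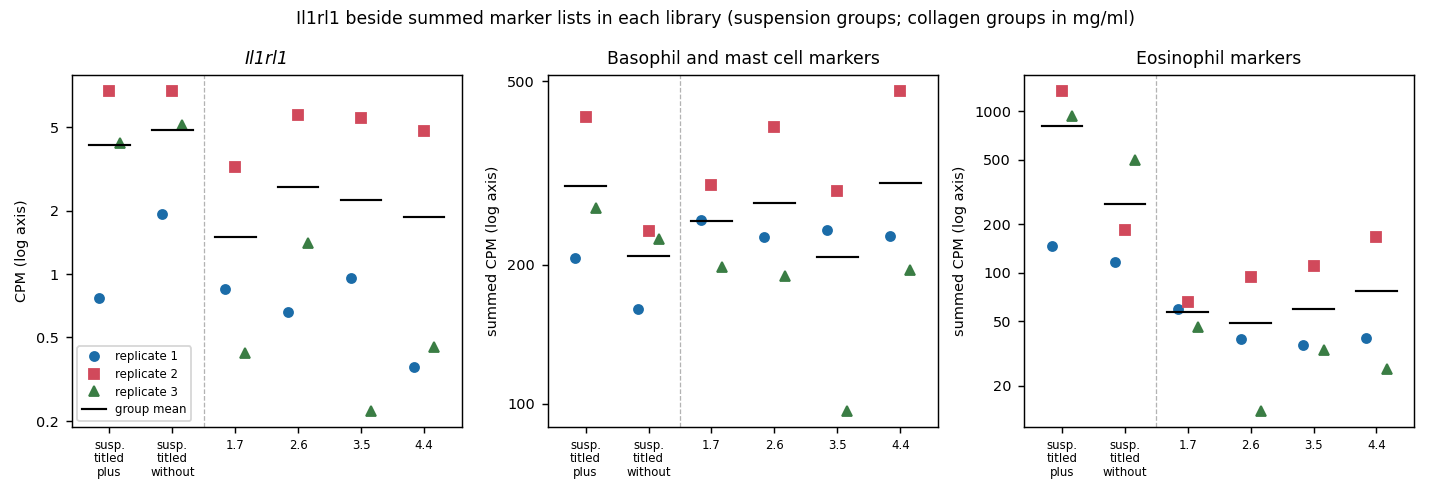
Il1rl1 in CPM beside the summed CPM of the basophil and mast cell list and the eosinophil list (8 genes each), in each library on log axes, with a bar at the group mean (n = 3). Il1rl1 and the basophil and mast cell sum were highest in replicate 2 in all 6 groups, and the eosinophil sum was 117 to 1339 CPM in suspension against 14.0 to 168 CPM in collagen.

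Collagen density within the gels was compared next. The 4 ligand genes Il1a, Il1b, Il1rn, and Il18 were each highest at 4.4 mg/ml in all 3 replicates, and none of the 4 receptor genes was, an order counted after the values were seen. Among all genes tested, 3.94% were highest at 4.4 mg/ml in every replicate. Group means of Il1a ran from 173 ± 92.7 CPM at 1.7 mg/ml through 216 ± 168 CPM and 278 ± 307 CPM to 547 ± 521 CPM at 4.4 mg/ml (SD, n = 3 each). In replicate 1 Il1a increased at every step, and in replicate 3 it was lowest at 3.5 mg/ml. Group means of Il1b were 1267 ± 837, 1521 ± 693, 1346 ± 1356, and 2245 ± 826 CPM in the same order (SD, n = 3 each). For all 8 members, every pair of groups next to each other in the order of means overlapped in range.

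No member passed the test for a linear trend over the densities, with or without the block, where 0.00722% and 1.45% of all genes did. The slope of Il1a was 0.59 log2 units per mg/ml (SE 0.33, adjusted p = 0.794) and 0.43 with the block (adjusted p = 0.224), and that of Il1b was 0.26 (SE 0.26, adjusted p = 0.968). At an unadjusted p below 0.05 no member had a slope without the block, and 3 (Il1a, Il1b, and Il1rn) had a rising one with it. The adjusted p of these 3 was 0.224 to 0.336 (edgeR with the block). The share of all genes under the unadjusted cut was not counted, so the 3 cannot be set against it.

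Each density was also set against the shared suspension libraries. At 4.4 mg/ml, where 14.8% of genes were called, 2 of 8 members were called, Il1a at a log2 fold change of 3.08 (SE 0.78, adjusted p = 0.0204) and Il1b at 2.45 (SE 0.60, adjusted p = 0.0180), which are 8.47- and 5.47-fold. All 3 libraries at 4.4 mg/ml lay above every suspension library for both genes, as for 4.93% of genes. Without replicate 2 neither passed (adjusted p = 0.202 for Il1a and 0.266 for Il1b). With the block, 5 of 8 were called (31.9% of genes), Il1rn, Il18, and Il1rl1 being added. At 1.7 mg/ml no member was called without the block (0.0361% of genes) and Il1a (1.72, adjusted p = 0.0404) and Il1b (1.67, adjusted p = 0.0148) were with it (2.91%). At 2.6 mg/ml Il1b alone was called (1.89, adjusted p = 0.0893, 7.87% of genes), a call lost without replicate 2, replicate 3, or the 4.4 mg/ml replicate 2 library, and with the block Il1a (1.88, adjusted p = 0.00469), Il1b (2.07, adjusted p = 5.87e-04), and Il1r1 were (21.6%). At 3.5 mg/ml none was called (4.90% of genes) until the block was added (18.4%), when Il1a (1.87, adjusted p = 0.00545) and Il1b (1.50, adjusted p = 0.00438) passed. Between the 2 suspension groups edgeR called no member and no gene, with 0 members at an unadjusted p below 0.05, and DESeq2 called no member either.

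**Figure D4:**
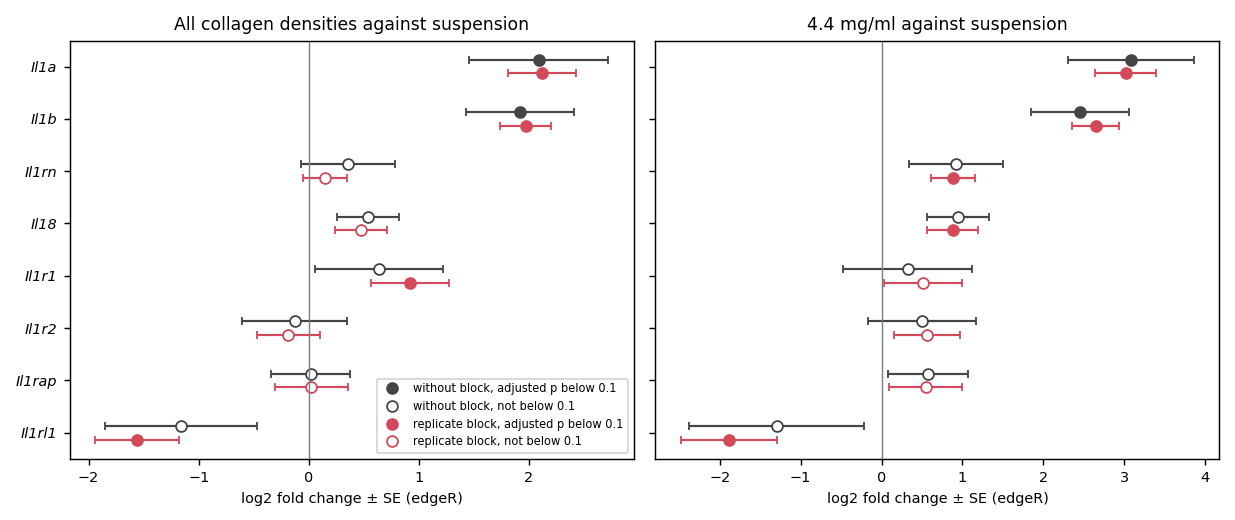
Fitted log2 fold change of each member with its SE (edgeR), for all collagen libraries and for 4.4 mg/ml against the 6 suspension libraries, without (grey) and with (red) the replicate block; filled points have an adjusted p below 0.1. Il1a and Il1b are filled in both fits and both panels (log2 fold changes 1.92 to 3.08), and Il1r1, Il1rn, Il18, and Il1rl1 are filled only with the block.

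The other genes of the pathway were counted by role in collagen against suspension, with all genes tested having a median log2 fold change of 0.00, and 20.2% of them called, 7.78% higher and 12.4% lower. Of 3 tested members of the other ligands and binding protein, Il1f9, which encodes IL-36γ and lies in the same row as Il1rn, was called higher. It rose from 18.5 ± 4.87 CPM (SD, n = 6) to 50.5 ± 15.6 CPM (SD, n = 12), a log2 fold change of 1.43 (SE 0.21, adjusted p = 8.06e-04), with ratios of means of 2.78, 2.78, and 2.59 in the 3 replicates. Il33, the ligand of Il1rl1, held 0 to 16 counts per library and did not pass the filter. Of the 4 other receptors tested, Sigirr, a receptor that dampens IL-1 signaling, was called lower (log2 fold change −0.78, SE 0.25, adjusted p = 0.0529). Il18r1, which begins 0.1 kb beyond Il1rl1, had a log2 fold change of −0.73 (adjusted p = 0.420), and Il1rl2, between Il1r1 and Il1rl1, had −0.36 (adjusted p = 0.600).

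Of 11 genes of receptor signaling, 6 were called, 3 higher and 3 lower, against 7.78% and 12.4% of all genes (list median log2 fold change 0.32). The adaptor Myd88 rose from 85.0 ± 14.4 CPM (SD, n = 6) to 134 ± 21.2 CPM (SD, n = 12), with a log2 fold change of 0.65 (adjusted p = 0.0124). The kinase Irak4 fell from 18.7 ± 1.85 CPM (SD, n = 6) to 11.6 ± 3.19 CPM (SD, n = 12), with a log2 fold change of −0.71 (adjusted p = 0.0110). The kinase Irak1 was also lower (−0.46, adjusted p = 0.0506) and the TAK1-binding adaptor Tab2 higher (0.67, adjusted p = 0.0633). The adaptor and both kinases thus changed in opposite directions.

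Of 9 genes of processing and release, 3 were called higher and none lower, against 7.78% and 12.4% of all genes (list median 0.24). Casp4, the caspase that senses cytosolic LPS, had a log2 fold change of 1.29 (adjusted p = 0.00980), Nlrc4, an inflammasome sensor, 1.50 (adjusted p = 0.0273), and the DNA sensor Aim2 0.68 (adjusted p = 0.0537). The core of the inflammasome that cleaves pro–IL-1β did not pass the test, with Casp1 at 0.31 (adjusted p = 0.566), Nlrp3 at 0.04 (adjusted p = 0.962), and Pycard at −0.24 (adjusted p = 0.544).

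Of 10 NF-κB-induced and mRNA decay genes, 4 were called higher and none lower, again against 7.78% and 12.4% of all genes (list median 0.86). Ptgs2 rose from 53.4 ± 59.1 CPM (SD, n = 6) to 429 ± 532 CPM (SD, n = 12), with a log2 fold change of 2.78 (SE 0.90, adjusted p = 0.0503). Il6 had a log2 fold change of 1.61 (adjusted p = 0.0154), Nfkbiz, a nuclear co-activator of secondary NF-κB targets, 1.32 (adjusted p = 0.0245), and Cxcl1 1.71 (adjusted p = 0.0706). The feedback inhibitors in the same list did not pass, with Nfkbia at 0.09 (adjusted p = 0.804), Tnfaip3 at 0.40 (adjusted p = 0.553), Zfp36 at 0.10 (adjusted p = 0.840), and Zc3h12a at −0.09 (adjusted p = 0.772).

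**Figure D5:**
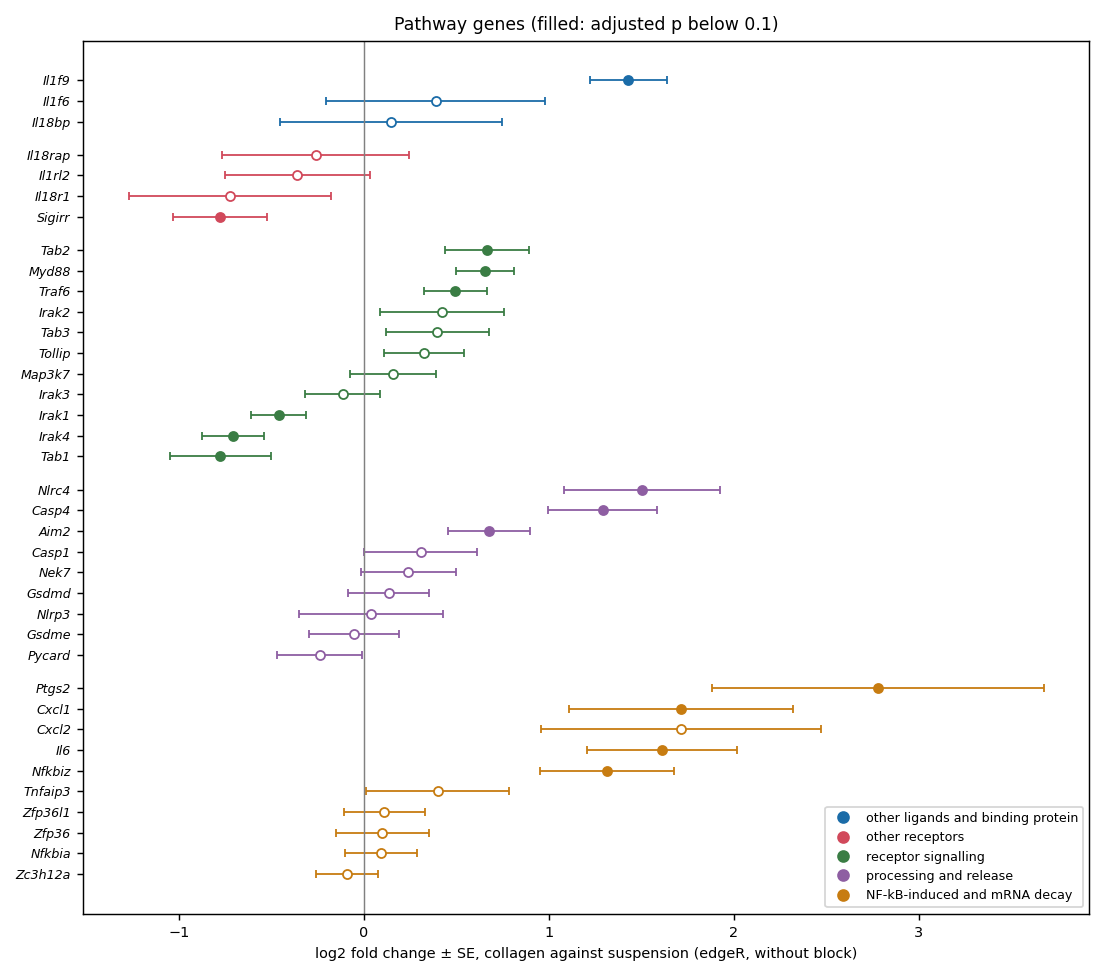
Log2 fold change and SE of each tested pathway gene in all collagen libraries (n = 12) against suspension (n = 6), grouped by role (edgeR, without the block); filled points have an adjusted p below 0.1. Called genes in the processing and NF-κB-induced lists all lie to the right of 0 (Ptgs2 farthest, at 2.78), while receptor signaling splits between Myd88 at 0.65 and Irak4 at −0.71.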

How the data were processed

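Libraries were made with the TruSeq Stranded mRNA kit and sequenced as 50-base single-end reads. The authors aligned reads to GRCm38 with STAR 2.7.0f (submitters' processing notes) and deposited raw whole-number counts per Ensembl gene for all 18 libraries, with the tool behind the counts and its strand setting not given in the sources used here (the methods name RSEM for TPM values, which were not used). Without a known strand setting, reads of Il1b, Il1a, Il1r2, Il1rap, and Il18 cannot be separated from genes that overlap them (for Il1b, Il1bos with at most 34 counts). For Il18, at 34 to 168 counts per library, the overlapping Bco2 held 1 to 36 counts. Il1r1 and Il1r2 each also overlap a gene annotated on their own strand, which a strand setting would not separate. Counts were filtered with filterByExpr, scaled by TMM, and tested with the edgeR 4.0.16 quasi-likelihood test in R 4.3.3 on all 18 libraries, with Benjamini-Hochberg adjustment over 13844 genes and a false discovery rate of 0.1. CPM used TMM-scaled library sizes, and RPKM divided by the union exon length (GENCODE M21). Correlations used log2 CPM with a prior count of 2. Permutation tests used log2 of CPM plus 0.5.

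Groups came from the sample titles. Replicates are titled biological, but nothing names separate animals, so p-values measure the spread between these libraries. Deviations from group means correlated at a mean r of 0.434 for libraries of the same replicate number (45 pairs, −0.149 to 0.846) and −0.214 for different numbers (90 pairs), and shared numbers mark a shared date and lane in the library names. No 2 libraries were identical (153 pairs). The members were named whatever their values. Named pathway genes were those past the threshold (at most 4 of smallest p per list) or next to a member, to which other genes of the lists were added after their values were seen, and the 3 genes of highest Pearson r were named for each member. Members and lists were chosen with earlier results of these data known. Of 103 list genes, 99 are in the table and the other 4 were not analysed here. Alternatives were the replicate block, DESeq2 1.42.0 with and without it, other scaling and filtering, GC and length offsets, and leaving out replicates. The steps were tested on simulated data that held no replicate effect, so the simulation does not bear on the choice between fits with and without the block.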

Additional observations from a re-analysis of the deposited data

How the results depend on the processing

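In collagen against suspension the log2 fold change of Il1a ranged from 1.78 to 2.36 over 11 alternatives and passed in 9, and that of Il1b from 1.73 to 2.01 and passed in 10. At 4.4 mg/ml Il1a ranged from 2.61 to 3.42 and Il1b from 2.18 to 2.92, each passing in 11 of 12. Il1rl1 ranged from −2.22 to −0.69 over the 11 alternatives in collagen against suspension and passed in 6. Members called without the block were 2 over all collagen libraries and 0, 1, 0, and 2 for single densities from lowest to highest, and the replicate block, which pairs libraries of one date and lane, made these 4 and 2, 3, 2, and 5. DESeq2 with the block called 5, 3, 3, 3, and 5 in the same order and 1 in the density trend (Il1a). Of all 13844 genes it called 5381 over all collagen libraries, 1095 at 1.7 mg/ml, and 3665 at 2.6 mg/ml. The block with GC and length offsets called 4, 2, 3, 2, and 4 members. Of all genes that fit called 5157 over all collagen libraries and 643 at 1.7 mg/ml. DESeq2 without the block called 2 at 3.5 mg/ml. With no filter on low counts 2 were called at 1.7, 2 at 2.6, and 2 at 3.5 mg/ml, and 1 in the trend. Of all 29875 genes that fit called 79 at 1.7 mg/ml and 1228 at 2.6 mg/ml. At 2.6 mg/ml none was called with the offsets alone, in a fit on only the groups compared, or without the 4.4 mg/ml replicate 2 library. Leaving out 1 replicate, or the 4.4 mg/ml replicate 2 library, gave 1 to 3 members called in collagen against suspension, 0 to 3 at 2.6 mg/ml, and 0 to 2 at 4.4 mg/ml. In collagen against suspension those fits called 631 to 2958 of all genes. Except where fewer libraries or genes entered by construction, the cause was not tested. Where no count of all genes is given for a fit and comparison, the members called there cannot be set against it.

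Directions turned for members that had not passed without the block in the comparison concerned. In collagen against suspension Il1rap was −0.00868 with no filter, −0.33 without replicate 1, −0.20 without replicate 3, and −0.0551 with block and offsets, and Il1rn was −0.11 without replicate 1. At 4.4 mg/ml Il1r2 was −0.44 without replicate 2 and −0.37 without the 4.4 mg/ml replicate 2 library. In the trend the slope of Il1rl1 was −0.0608 with the block and −0.0579 in DESeq2 with the block, −0.30 without replicate 2, and −0.65 without the 4.4 mg/ml replicate 2 library. The slope of Il1r1 was 0.10 and that of Il1r2 −0.15 without replicate 2, and that of Il1r2 was −0.04 without the 4.4 mg/ml replicate 2 library. Over the fits that each left out 1 replicate or library, the members whose direction turned ranged from −0.11 to 0.57 for Il1rn and from −0.33 to 0.63 for Il1rap in collagen against suspension, from −0.44 to 1.34 for Il1r2 at 4.4 mg/ml, and in the trend from −0.46 to 0.10 for Il1r1, −0.15 to 0.67 for Il1r2, and −0.65 to 0.16 for Il1rl1. The biological coefficient of variation of 49.0% limits what 3 replicates can show, and counts as low as 3 limit Il1rl1.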
